A study of Mus musculus with 14 samples.

Results

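The 10 genes described here encode proteins of the Z-disc, and were chosen by name: Actn2, Actn3, Myoz1, Myoz2, Myoz3, Ldb3, Tcap, Csrp3, Ankrd1 and Ankrd2. They are 10 of the 14170 genes measured, and 13 of the 55681 probes on the array carry 1 of these symbols. Every one of the 13 probes was well above background on all 14 arrays, and none was saturated, so no member was lost to a filter on dim probes. The samples were whole EDL (extensor digitorum longus, a fast muscle) and soleus (SO, a slow muscle) of mice on the C57BL/6 background, with 1 Agilent 1-colour array for each. Ts1Cje mice, a model of Down syndrome with a segmental trisomy of chromosome 16, were set against disomic littermates (WT). The groups were 3 EDL of WT, 3 EDL of Ts1Cje, 4 soleus of WT and 4 soleus of Ts1Cje. No treatment was given, and the age and sex of the mice, and whether an EDL and a soleus came from 1 animal, are not given in the sources used here. None of the 10 genes lies on chromosome 16, so none is present in an extra copy in Ts1Cje.

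The Z-disc is the plate that anchors the thin filaments of neighbouring sarcomeres, the contractile units of muscle. Alpha-actinins cross-link the thin filaments there, calsarcins (myozenins) bind alpha-actinin and the phosphatase calcineurin, and adaptors such as LDB3 and telethonin tie the lattice to titin and to signalling proteins. Several of these proteins come in forms known to be favoured by fast or by slow fibres, and CSRP3, ANKRD1 and ANKRD2 are known to respond to stretch and load.

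Levels are log2 signals relative to the 75th percentile of the same array, so 0 is that percentile and a step of 1 is a doubling. Signals of different probes cannot be set against each other, so levels are compared only within a gene. Differences were tested with limma over all 14170 genes, and a gene is called, written as higher, lower, rose or fell, at a Benjamini-Hochberg adjusted p under 0.05. Folds and SEs are those of that fit, and each SD is over the arrays of 1 group.

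The probes that separate the fast and slow forms are short enough to be read directly. Those of Actn2 and Actn3 are shown because the paralogs were measured through different stretches of their sequence. The end of the Actn2 probe aligns with the start of the Actn3 probe over 19 bases, of which 13 match. These matching bases are in capitals, 5′ to 3′ on the sense strand. The other bases of both probes are mismatches within those 19 or lie in parts that do not overlap.
Actn2: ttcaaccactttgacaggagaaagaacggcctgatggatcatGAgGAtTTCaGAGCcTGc
Actn3: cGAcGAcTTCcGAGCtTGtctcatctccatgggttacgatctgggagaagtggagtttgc
The probes of the other genes that were higher in the soleus, Myoz2, Csrp3 and Ankrd2, are shown for the muscle comparison that follows.
Myoz2: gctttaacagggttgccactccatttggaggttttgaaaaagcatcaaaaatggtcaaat
Csrp3: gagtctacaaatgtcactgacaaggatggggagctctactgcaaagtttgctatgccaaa
Ankrd2: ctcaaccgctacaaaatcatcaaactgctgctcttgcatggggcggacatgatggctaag

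Positions are those of the mm9 build in the array files. The probe of Actn2 (gene 11472) lies within chr13:12364990-12367362, that of Actn3 (gene 11474) within chr19:4861727-4862212, that of Csrp3 (gene 13009) within chr7:56086063-56087977 and that of Myoz2 (gene 59006) within chr3:122709486-122716527. These 4 probes are on the minus strand, and each spans more genome than its 60 bases, so each reads spliced RNA across an intron. The probes of Myoz1 (gene 59011, chr14:21468483-21468542) and Ankrd1 (gene 107765, chr19:36186809-36186868), on the minus strand, and of Ankrd2 (gene 56642, chr19:42118566-42118625) and Tcap (gene 21393, chr11:98246127-98246186), on the plus strand, are single blocks. Ldb3 (gene 24131) has a probe at chr14:35374689-35374748 and another at chr14:35340222-35340281, which the files pair with different transcripts. Myoz3 (gene 170947) and Actn2 also have a second probe each. No annotation of the mm9 build was used, so exon and UTR positions are not given.

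The 75th percentile of the signal ran from 62.4 to 144, with the highest values on slide 2 in the Ts1Cje soleus of replicates 2 and 3. Between 41.27% and 52.93% of probes were well above background, and arrays of 1 group correlated at 0.979 to 0.988. All 7 skeletal muscle markers were measured, and all 10 slow fibre markers were lower in the EDL of both genotypes. Of 10 fast fibre markers 8 were higher in the EDL and 1, Myh2, was lower. Of 7 cardiac markers 4 were measured, and Ryr2 was not well above background on any array. All EDL arrays and the Ts1Cje soleus of replicate 1 were on slide 1, and the other 7 soleus arrays were on slide 2. In WT the muscle and the slide therefore cannot be told apart, and values with the slide as a block rest on that 1 soleus array.

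**Figure D1:**
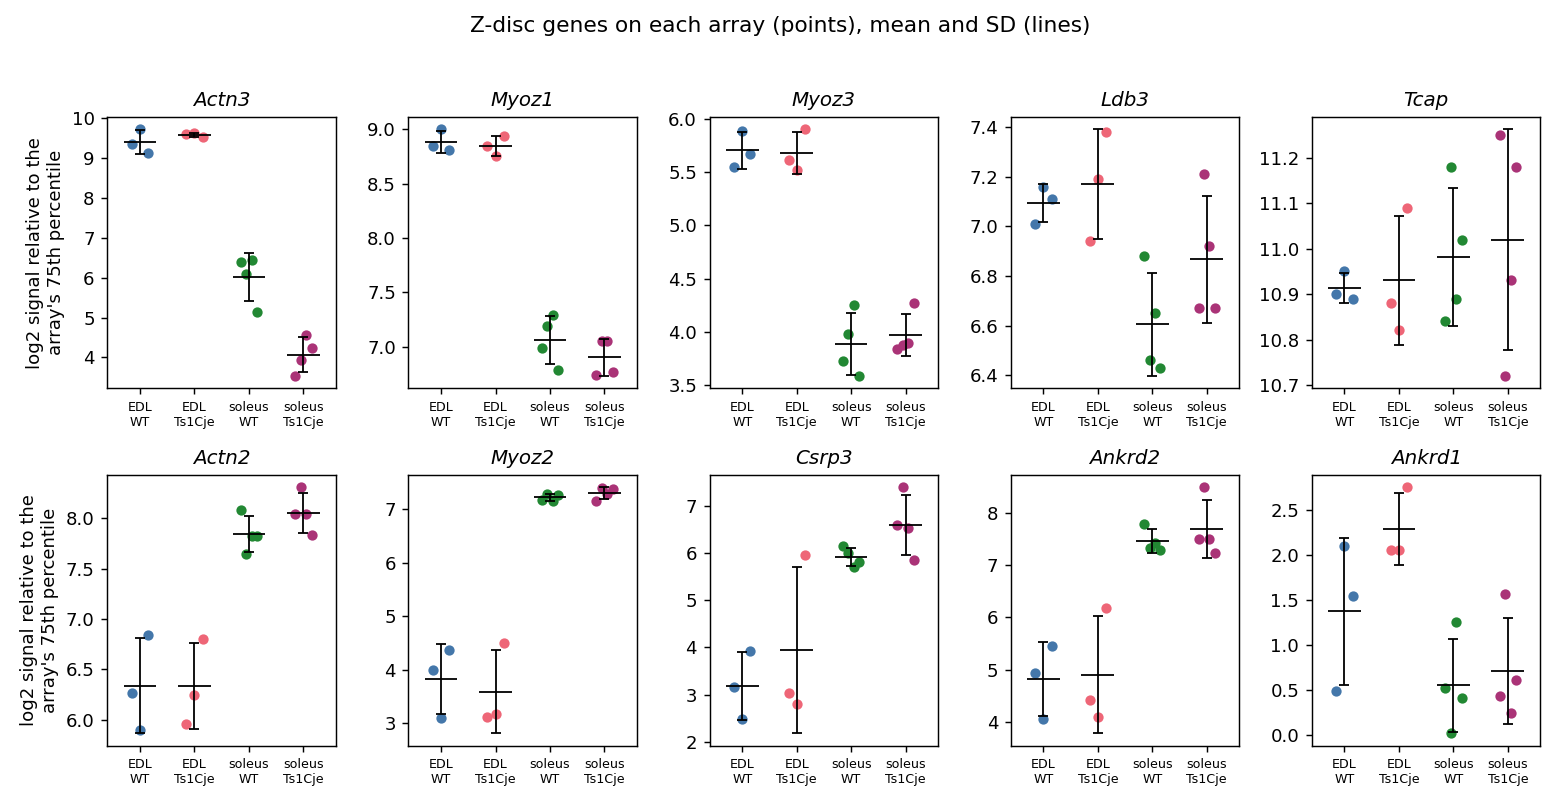
Level of each of the 10 genes on each array (points), with the mean and SD of each group (lines), on a log2 axis that differs between panels. Actn3, Myoz1 and Myoz3 sit above the soleus in every EDL array, Actn2, Myoz2 and Ankrd2 below it, and the 4 soleus arrays of Ts1Cje lie below those of WT for Actn3.

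Fast and slow Z-disc forms split by muscle. In WT, 8 of the 10 genes differed between EDL and soleus, 4 higher and 4 lower in the EDL, against 29.8% of all genes called (20% higher and 9.76% lower). In Ts1Cje, 8 of 10 were called again, 4 in each direction, against 29.9% of all genes (17.5% higher and 12.4% lower), and 7 were called in the same direction in both genotypes. The median size of the difference over the 10 genes, without its sign, was 1.82 in WT and 1.83 in Ts1Cje on the log2 scale, beside 0.31 over all genes in each. The ranges of the muscles did not overlap for 8 members in WT, beside 38.9% of genes, and for 7 in Ts1Cje, beside 35.3%. In whole muscle, fewer fibres of a type and less RNA per fibre cannot be told apart.

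Actn3, the alpha-actinin of fast fibres, was the member with the largest difference in favour of the EDL. In WT its levels were 9.36, 9.72 and 9.13 in the EDL and 6.39, 6.10, 6.45 and 5.13 in the soleus. Every EDL array stood above every soleus array, and the difference of 3.39 ± 0.30 (SE) was 10.5-fold (limma, adjusted p = 7.61e-06). In Ts1Cje the EDL levels were 9.60, 9.63 and 9.53, and those of the soleus were 3.54, 3.93, 4.56 and 4.25. That gap of 5.52 ± 0.30 was 45.8-fold (limma, adjusted p = 1.33e-07). With the slide as a block it was 4.09 in WT (limma, adjusted p = 0.00101) and 6.04 in Ts1Cje (limma, adjusted p = 1.15e-05).

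Actn2, the alpha-actinin present in all skeletal and cardiac fibres, ran the other way but less steeply. Its WT levels were 6.27, 5.90 and 6.84 in the EDL and 8.08, 7.65, 7.82 and 7.82 in the soleus. The EDL was lower by a log2 difference of -1.51 ± 0.23, or 2.84-fold (limma, adjusted p = 0.000366). In Ts1Cje the levels were 5.96, 6.25 and 6.80 in the EDL and 8.04, 8.31, 8.04 and 7.83 in the soleus, a difference of -1.72 ± 0.23 (3.29-fold; limma, adjusted p = 0.000127). The ranges of the muscles did not overlap in either genotype. Within slide 1, where 3 EDL arrays of Ts1Cje meet 1 soleus array, the difference was -1.71 and was not called (limma, adjusted p = 0.0635).
The second Actn2 probe, at chr13:12400548-12400607 and much dimmer, ranged from -1.75 to 0.27 in the EDL and from -0.59 to 1.11 in the soleus. Its difference was -1.14 in WT (limma, adjusted p = 0.0985) and -0.62 in Ts1Cje (limma, adjusted p = 0.359), so this probe was called in neither.

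The calsarcins separated into 2 fast forms and 1 slow form. Myoz1, calsarcin-2 of fast fibres, had levels of 8.85, 9.00 and 8.81 in the WT EDL and 6.99, 7.19, 7.29 and 6.79 in the WT soleus. It was among the steadiest members, and the EDL was higher by 1.82 ± 0.13, or 3.53-fold (limma, adjusted p = 1.76e-06). In Ts1Cje the EDL levels were 8.85, 8.76 and 8.94 and the soleus levels 6.74, 7.05, 7.05 and 6.77, a difference of 1.95 ± 0.13 (3.86-fold; limma, adjusted p = 7.18e-07).

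Myoz3, calsarcin-3, also of fast fibres, had levels of 5.55, 5.89 and 5.67 in the WT EDL and 3.73, 3.98, 4.25 and 3.59 in the WT soleus. The EDL was higher by 1.82 ± 0.17 (3.53-fold; limma, adjusted p = 1.08e-05). In Ts1Cje, levels were 5.61, 5.52 and 5.90 in the EDL and 3.84, 3.88, 3.90 and 4.27 in the soleus, with the EDL higher by 1.71 ± 0.17 (3.26-fold; limma, adjusted p = 1.35e-05). The dimmer second probe of Myoz3 gave smaller differences in the same direction, 0.36 in WT (limma, adjusted p = 0.0833) and 0.70 in Ts1Cje (limma, adjusted p = 0.00327).

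Myoz2, calsarcin-1 of slow fibres and heart, was the reverse. Its levels were 3.99, 3.09 and 4.37 in the WT EDL and 7.18, 7.28, 7.16 and 7.26 in the WT soleus. The soleus arrays lay within 0.12 of each other, while the EDL arrays spanned 1.28. The EDL was lower by -3.40 ± 0.32, or 10.6-fold (limma, adjusted p = 1.16e-05). In Ts1Cje, levels were 3.11, 3.16 and 4.49 in the EDL and 7.15, 7.39, 7.29 and 7.38 in the soleus, a difference of -3.72 ± 0.32 (13.2-fold; limma, adjusted p = 4.29e-06). For the 3 calsarcins and Actn3, every comparison of the muscles stayed called with the slide as a block and, in Ts1Cje, within slide 1. On slide 1 the differences were 6.04 for Actn3, 2.12 for Myoz1, 1.84 for Myoz3 and -3.56 for Myoz2.

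The adaptors showed little or no split. Ldb3 encodes ZASP (Cypher), a PDZ and LIM domain protein that binds alpha-actinin and calsarcins. Its levels were 7.01, 7.16 and 7.11 in the WT EDL and 6.88, 6.46, 6.65 and 6.43 in the WT soleus, so the groups did not overlap. The EDL was higher by 0.49 ± 0.16, or 1.40-fold (limma, adjusted p = 0.0343). The call was not stable. With the replicate number as a block, which pairs these samples, the difference was 0.42 (limma, adjusted p = 0.0804), and leaving out any 1 WT array other than the soleus of replicate 1 ended it, with differences of 0.43 to 0.53 and limma adjusted p-values of 0.0552 to 0.101.
Quantile normalization gave 0.29 (limma, adjusted p = 0.256). In Ts1Cje, where the levels were 6.94, 7.19 and 7.38 in the EDL and 6.67, 7.21, 6.92 and 6.67 in the soleus, the difference of 0.30 ± 0.16 was not called (limma, adjusted p = 0.173, 95% interval -0.04 to 0.64). The second Ldb3 probe, paired with another transcript, differed by 0.30 in WT (limma, adjusted p = 0.158) and by -0.03 in Ts1Cje (limma, adjusted p = 0.885).

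Tcap encodes telethonin, which caps the end of titin in the Z-disc. Its levels spanned only 10.72 to 11.25 over all 14 arrays, and the ranges of the 4 groups overlapped. The EDL differed from the soleus by -0.07 ± 0.13 in WT (95% interval -0.36 to 0.22; limma, adjusted p = 0.728) and by -0.09 ± 0.13 in Ts1Cje (95% interval -0.39 to 0.20; limma, adjusted p = 0.629). Under quantile normalization Tcap was instead called lower in the EDL, by -0.57 in WT (limma, adjusted p = 0.00361) and -0.74 in Ts1Cje (limma, adjusted p = 0.000491).

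**Figure D2:**
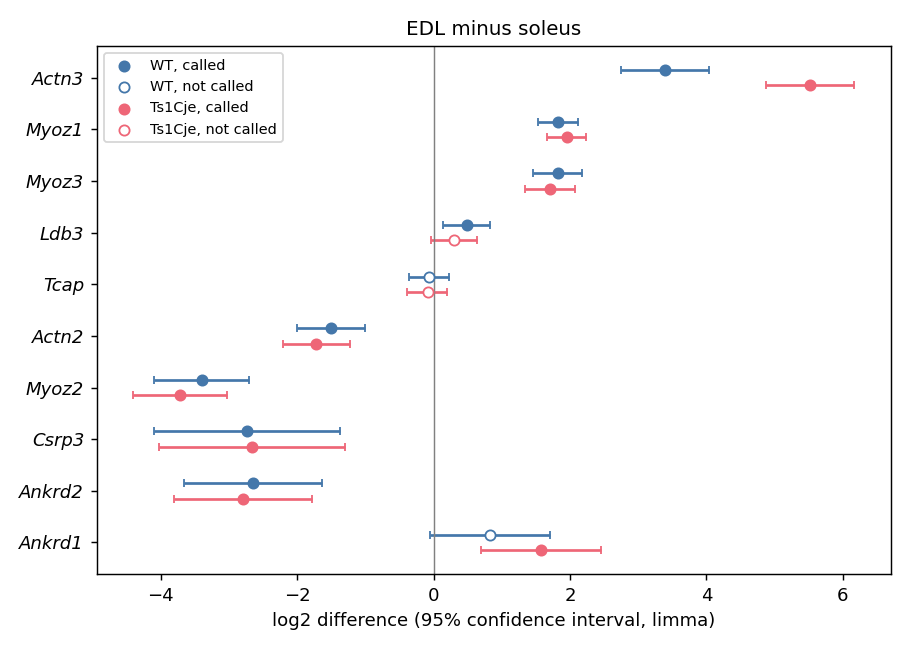
Difference in level between EDL and soleus (points, log2, EDL minus soleus) with its 95% confidence interval from limma, in WT and in Ts1Cje, for each gene. Filled points were called. Actn3, Myoz1 and Myoz3 lie to the right, Actn2, Myoz2, Csrp3 and Ankrd2 to the left, and both intervals of Tcap include 0.

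Of the stretch-responsive genes, Csrp3 and Ankrd2 were higher in the soleus and Ankrd1 was not. Csrp3 encodes muscle LIM protein, and its WT levels were 3.16, 2.48 and 3.92 in the EDL and 6.16, 6.00, 5.72 and 5.81 in the soleus. The EDL was lower by -2.74 ± 0.63, or 6.66-fold (limma, adjusted p = 0.00584). In Ts1Cje, levels were 3.04, 2.80 and 5.97 in the EDL and 6.61, 7.41, 6.54 and 5.85 in the soleus. The EDL of replicate 3 stood above the lowest soleus array, so the groups overlapped, and the difference was -2.67 ± 0.63 (6.35-fold; limma, adjusted p = 0.00704). Without that EDL array it was -3.68 (limma, adjusted p = 5.98e-05). With the slide as a block Csrp3 was called in neither genotype, at -2.75 in WT (limma, adjusted p = 0.161) and -2.67 in Ts1Cje (limma, adjusted p = 0.0948).

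Ankrd2 encodes a muscle ankyrin repeat protein that is known for slow fibres. Its WT levels were 4.93, 4.05 and 5.46 in the EDL and 7.79, 7.33, 7.43 and 7.30 in the soleus, a difference of -2.65 ± 0.47 (6.28-fold; limma, adjusted p = 0.00106). In Ts1Cje, levels were 4.42, 4.09 and 6.18 in the EDL and 7.51, 8.50, 7.50 and 7.24 in the soleus, a difference of -2.79 ± 0.47 (6.91-fold; limma, adjusted p = 0.000702). The groups did not overlap in either genotype. Without the EDL of Ts1Cje replicate 3 the difference was -3.43 (limma, adjusted p = 6.99e-05). With the slide as a block the difference in WT was -2.41 and was not called (limma, adjusted p = 0.102), while that in Ts1Cje was -2.61 (limma, adjusted p = 0.0337).

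Ankrd1 encodes the cardiac ankyrin repeat protein, and its levels were scattered within groups. They were 0.49, 2.10 and 1.55 in the WT EDL and 0.53, 0.02, 1.26 and 0.41 in the WT soleus, which overlapped, and the difference of 0.83 ± 0.41 was not called (limma, adjusted p = 0.145, 95% interval -0.05 to 1.70). Without the WT EDL of replicate 1 it was 1.27 and was called (limma, adjusted p = 0.0348), and without that of replicate 2 it was 0.47 (limma, adjusted p = 0.456). In Ts1Cje all 3 EDL arrays, at 2.06, 2.06 and 2.76, lay above the soleus arrays, at 0.44, 1.57, 0.25 and 0.61. That difference of 1.57 ± 0.41 (2.97-fold) was called (limma, adjusted p = 0.0116), but not with the slide as a block, at 1.85 (limma, adjusted p = 0.0703). Whether the muscle difference itself differed between the genotypes was tested as the difference of the effects, 0.74 ± 0.57, which was not called (limma, adjusted p = 0.988).

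The members differed widely in how much they varied between arrays of 1 group. The residual SD was 0.17 for Tcap and for Myoz1, near the 30th percentile of all genes (31 and 29.8), and 0.21 for Ldb3 and 0.23 for Myoz3, beside an all-gene median of 0.23. It was 0.93 for Csrp3, 0.68 for Ankrd2 and 0.59 for Ankrd1, at the 98.9, 96.3 and 94.4 percentiles. It was 0.46 for Myoz2, 0.43 for Actn3 and 0.32 for Actn2. Without the Ts1Cje EDL of replicate 3 it was 0.52 for Csrp3, 0.49 for Ankrd2, 0.59 for Ankrd1, 0.32 for Myoz2 and 0.45 for Actn3, an alternative chosen after seeing the data.

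Part of that spread ran along with slow fibre markers, and with the signal of the whole array, within the EDL. Myh7, the slow myosin heavy chain, had levels of 6.44, -0.02 and 5.74 in the WT EDL and 3.07, 2.37 and 5.65 in the Ts1Cje EDL. The mean of the 10 slow fibre markers was 4.44, 1.49 and 3.95 in the same WT arrays and 2.27, 1.91 and 4.01 in the same Ts1Cje arrays. Replicates 1 and 3 of WT and replicate 3 of Ts1Cje were thus the EDL arrays with the most slow fibre signal. In those arrays Myoz2 stood at 3.99, 4.37 and 4.49, and in the others at 3.09, 3.11 and 3.16. Actn2, Ankrd2 and Csrp3 were also highest in these 3 arrays, with Csrp3 at 5.97 in replicate 3 of Ts1Cje. The gap was narrow for Actn2, at 6.27 in WT replicate 1 beside 6.25 in Ts1Cje replicate 2. For Csrp3 it lay between 3.16 in WT replicate 1 and 3.04 in Ts1Cje replicate 1. WT replicate 1 had the most slow fibre signal but, among these 3 arrays, the lowest levels of Myoz2, Actn2, Ankrd2 and Csrp3. These 3 arrays also had the highest 75th percentiles of signal in the EDL, at 84.0 and 99.6 in WT and 103.6 in Ts1Cje. The others stood at 62.4 in WT and at 68.1 and 65.3 in Ts1Cje. In each soleus array, by contrast, the slow marker mean lay between 8.15 and 8.73. These values are descriptions of 6 arrays. The parts of the slow fibre signal and of the array signal in the spread of the members were not tested.

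**Figure D3:**
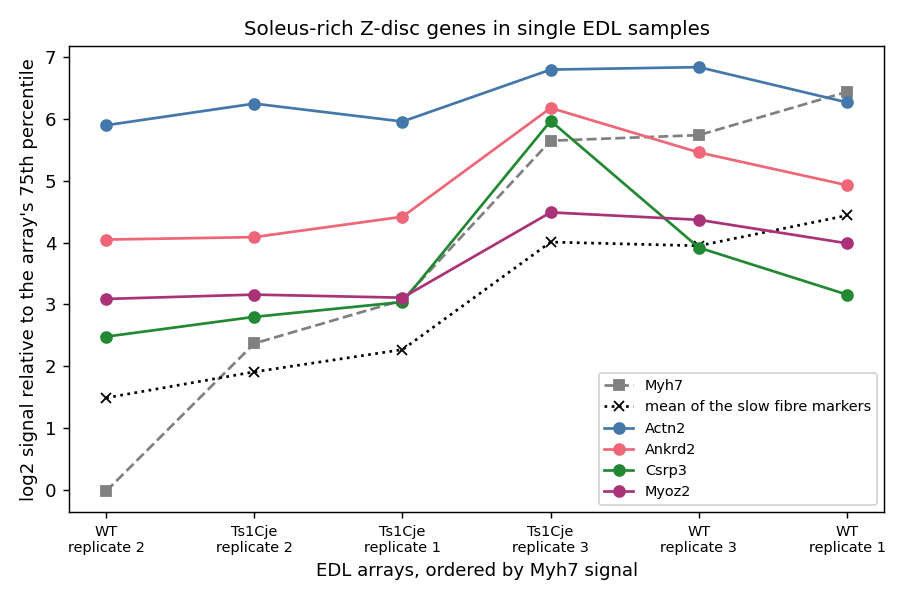
Levels (log2) of the 4 genes that were higher in the soleus in the 6 EDL arrays, ordered by the level of Myh7 from left to right, with Myh7 and the mean of 10 slow fibre markers. All 4 genes are higher in the 3 arrays on the right than in the 3 on the left, narrowly for Actn2 and Csrp3, and Csrp3 peaks at 5.97 in replicate 3 of Ts1Cje. Among the 3 on the right, all 4 genes are lowest in the array furthest right, WT replicate 1.

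Against their WT littermates, the Ts1Cje soleus had less Actn3 and no other called member. That is 1 of 10 members, against 0.247% of all genes called (0.0706% lower). The levels of Actn3 were 6.39, 6.10, 6.45 and 5.13 in the WT soleus (6.02 ± 0.61, SD, n = 4) and 3.54, 3.93, 4.56 and 4.25 in that of Ts1Cje (4.07 ± 0.44, SD, n = 4). Every Ts1Cje array lay below every WT array, which held for 2.29% of all genes in that direction and for 8.39% in either. Actn3 fell by 1.95 on the log2 scale (SE 0.28, 95% interval -2.55 to -1.34), or 3.85-fold (limma, adjusted p = 0.0131). In the same fit Actn2, its paralog, differed by 0.21 ± 0.21 (95% interval -0.24 to 0.67; limma, adjusted p = 0.65).

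The size of the Actn3 difference was steadier than its call. Leaving out 1 soleus array gave differences from -2.24 to -1.77. The call was lost without WT replicate 1, at -1.82 (limma, adjusted p = 0.0575), and without Ts1Cje replicate 2, at -1.90 (limma, adjusted p = 0.0615). Ts1Cje replicate 1, the soleus array on slide 1, was the lowest. With the slide as a block, which is the same fit for soleus as leaving that array out, the difference was -1.77 (limma, adjusted p = 0.0386), and within slide 2 alone it was -1.77 and not called (limma, adjusted p = 0.155). At the same -1.95 the call was also lost without a filter on dim probes (limma, adjusted p = 0.0525), with only the compared groups (limma, adjusted p = 0.0922) and with a replicate block (limma, adjusted p = 0.119).

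Of the fast fibre markers, 2 were also called lower in the Ts1Cje soleus. Myh4, the myosin heavy chain of type IIb fibres, had levels of 9.67, 9.26, 9.83 and 8.79 in the WT soleus and 5.69, 7.07, 4.42 and 3.88 in the Ts1Cje soleus. It fell by 4.12 on the log2 scale (SE 0.53; limma, adjusted p = 0.00644). Parvalbumin (Pvalb), the calcium buffer of fast fibres, fell by 1.86 (SE 0.21; limma, adjusted p = 0.00318). It was named after its values were seen, and is among the genes nearest to Actn3 over these same arrays. Myh4 and Pvalb were the 2 called genes among the 10 fast fibre markers, of which 9 were lower, with a median of -0.13. The mean of that list spanned 8.42 to 8.73 in the WT soleus and 7.68 to 8.08 in the Ts1Cje soleus, and its summed linear signal 9154 to 10560 and 7618 to 10150. The mean of the slow fibre markers spanned 8.15 to 8.52 and 8.50 to 8.73, with 10 of 10 higher by a median of 0.22 and 0 called. Over all genes the median in this comparison was 0.07, and the median size without its sign was 0.17. Among the 4 WT soleus arrays, replicate 4 was lowest for both Actn3 and Myh4, whereas in Ts1Cje replicates 1 and 2 were lowest for Actn3 and highest for Myh4. Of the 10 lists for skeletal muscle and other cell types, each had 0 called genes, and their medians ran from -0.07 (skeletal muscle and endothelium) over 0.09 (fibroblast and tendon), 0.12 (Schwann cell), 0.17 (macrophage), 0.26 (satellite cell), 0.27 (cardiac muscle), 0.31 (smooth muscle) and 0.40 (red blood cell) to 0.65 (adipocyte). The part of fibre type or of other cells in the Actn3 result was not tested.

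The other fast Z-disc genes did not pass the test in the soleus. Myoz1 had levels of 7.06 ± 0.22 in WT and 6.90 ± 0.17 in Ts1Cje (SD, n = 4 each), a difference of -0.16 ± 0.12 (95% interval -0.43 to 0.10; limma, adjusted p = 0.548). For Myoz3 the difference was 0.09 ± 0.16 (95% interval -0.25 to 0.42; limma, adjusted p = 0.821). Both intervals lie above that of Actn3, though the difference between these genes was not itself tested. The dimmer Myoz3 probe gave -0.31 ± 0.13 (limma, adjusted p = 0.358).

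The slow and load-responsive members in the soleus were also not called. Myoz2 differed by 0.08 ± 0.30, Ankrd2 by 0.22 ± 0.43 and Ankrd1 by 0.17 ± 0.38. Csrp3 averaged 5.92 ± 0.19 in WT and 6.60 ± 0.64 in Ts1Cje (SD, n = 4 each), and the difference of 0.68 ± 0.58 has a 95% interval of -0.58 to 1.94 (limma, adjusted p = 0.593). That interval includes both no change and a rise of more than 1 on this scale. Ldb3 differed by 0.26 ± 0.15, and by 0.40 ± 0.14 on its second probe (limma, adjusted p = 0.293), and Tcap by 0.04 ± 0.12.

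In the EDL, 0 of 10 members were called for genotype, against 0.00706% of all genes, with every limma adjusted p equal to 1. At an unadjusted p under 0.05 the count was also 0 of the members, and 408 of all genes. The ranges of WT and Ts1Cje overlapped for all 10, where 5.6% of genes did not overlap. Actn3 stood at 9.40 ± 0.30 in WT and 9.59 ± 0.06 in Ts1Cje (SD, n = 3 each), a difference of 0.18 ± 0.32 (95% interval -0.51 to 0.88). The largest differences were those of Ankrd1, 0.91 ± 0.43 (95% interval -0.03 to 1.85), and Csrp3, 0.75 ± 0.67. That of Ankrd1 ran from 0.46 without WT replicate 1 to 1.27 without WT replicate 2. That of Csrp3 rests on replicate 3 of Ts1Cje, since without it the value was -0.27. With a replicate block the SE was 0.46 for Ankrd1 and 0.41 for Csrp3, at the same differences, and neither was called. The slow fibre markers were lower in the Ts1Cje EDL for 9 of 10, with a median of -0.66 and 0 called, and their part in these values was not tested. Myoz1, Myoz3, Tcap and Ldb3 differed by -0.03 ± 0.14, -0.03 ± 0.18, 0.01 ± 0.14 and 0.08 ± 0.17.

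The genotype effect on Actn3 was then compared between muscles. The effect in the EDL minus that in the soleus was 2.13 ± 0.42 (95% interval 1.21 to 3.05). Its unadjusted limma p was 0.000249, but it did not pass adjustment over all genes (limma, adjusted p = 0.899). In that comparison 0 members were called, and 0% of all genes, with 1 member and 454 genes at an unadjusted p under 0.05. Averaged over both muscles, the effect on Actn3 was -0.88 ± 0.21 (limma, adjusted p = 0.188), and 0 members were called against 0.289% of all genes, with 1 member and 1344 genes at an unadjusted p under 0.05. Without the WT soleus of replicate 4 that mean effect was -1.03 and was called (limma, adjusted p = 0.0189). These comparisons share arrays with those above and are not separate evidence.

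**Figure D4:**
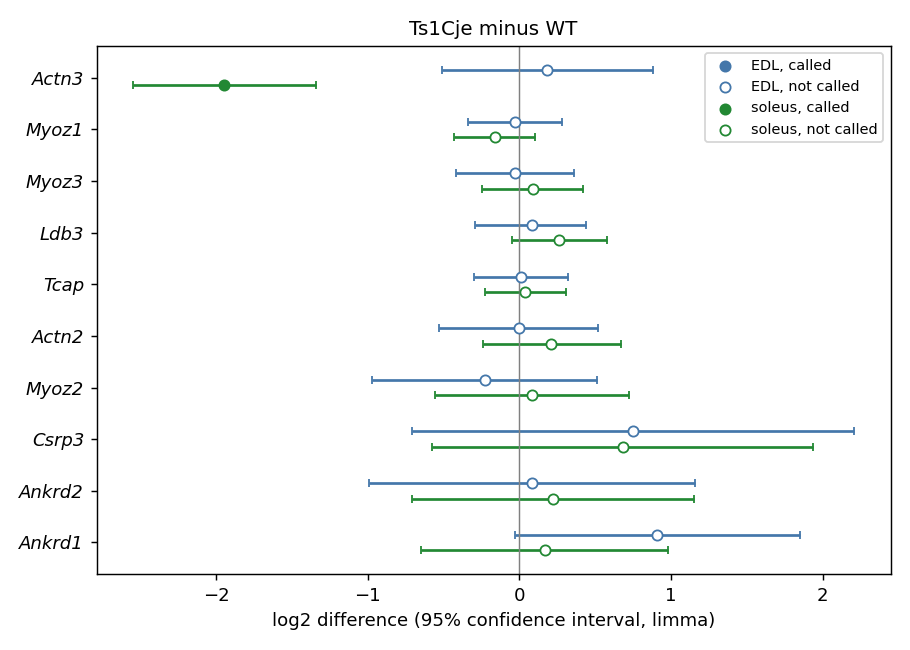
Difference in level between Ts1Cje and WT (points, log2, Ts1Cje minus WT) with its 95% confidence interval from limma, in the EDL and in the soleus, for each gene. The filled point is Actn3 in the soleus at -1.95, and the other intervals include 0.

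The wider Z-disc was described with a list of 53 other genes of this structure, of which 50 were measured (Nebl, Igfn1 and Sorbs2 were not). In WT, 15 were higher and 9 lower in the EDL, where 20% and 9.76% of all genes were called, with a median of 0.22 beside 0.07 over all genes. In Ts1Cje, 16 were higher and 11 lower, where 17.5% and 12.4% of all genes were called, with a median of 0.22 beside 0.01. The genes of smallest p that were higher in the WT EDL were Pdlim7 (1.24 ± 0.12), a PDZ and LIM domain protein, the calcineurin catalytic subunits Ppp3ca (1.21 ± 0.12) and Ppp3cb (1.22 ± 0.14), and Tmod4 (0.86 ± 0.09), a tropomodulin that caps thin filaments. The same 4 had the smallest p in Ts1Cje, at 1.19, 1.18, 1.23 and 0.96.

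On the soleus side, Fhl2, a LIM domain protein known from heart, had levels of -0.75 ± 0.26 in the WT EDL (SD, n = 3) and 3.05 ± 0.28 in the WT soleus (SD, n = 4). The EDL was lower by -3.80 ± 0.18, or 13.9-fold (limma, adjusted p = 1.35e-07), and in Ts1Cje by -4.51, or 22.8-fold (limma, adjusted p = 2.59e-08). Pdlim1, another PDZ and LIM domain protein, was lower in the EDL by -2.22 ± 0.20 in WT and -2.42 ± 0.20 in Ts1Cje. Lmod2, a leiomodin that nucleates actin, was lower by -2.59 ± 0.34 and -2.47 ± 0.34. The co-chaperone gene Bag3 was lower by -0.66 ± 0.15 and -1.02 ± 0.15.

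For genotype, limma called 0 of these 50 genes in either muscle, and 0 for the difference or the mean of the effects. At an unadjusted p under 0.05 they numbered 2 in the EDL (4%, beside 2.88% of all genes) and 8 in the soleus (16%, beside 13.6%), with 1 for the difference (2%, beside 3.2%) and 8 for the mean (16%, beside 9.48%). The smallest p in the EDL belonged to Vcl (vinculin), at 0.32 ± 0.13, and Fbxl22, at 0.50 ± 0.22 (limma, adjusted p = 1 for both). In the soleus it belonged to Actn4, a non-muscle alpha-actinin, at 0.40 ± 0.10 (limma, adjusted p = 0.205), and to Zyx (zyxin), at 0.43 ± 0.14 (limma, adjusted p = 0.274). For the difference of the effects it was Fhl2, at -0.72 ± 0.26, followed by Actn4, at -0.34 ± 0.16 (limma, adjusted p = 0.988 for both). For the mean effect it was Zyx, at 0.37 ± 0.10 (limma, adjusted p = 0.292), followed by Actn4, at 0.23 ± 0.08 (limma, adjusted p = 0.408). The list's median was 0.12 in the soleus, beside 0.07 over all genes, and 0.05 in the EDL, beside 0.00.

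The genes whose pattern over the 14 arrays was most like that of a member were then found. Nearness was the root mean square distance between values centred on each gene's own mean, and clone names were passed over. For Actn3, whose own values varied by 2.35 around their mean, the nearest genes were Mybpc2, the fast myosin-binding protein C, at 0.21, Pvalb at 0.23 and Tspan8 at 0.44. Mybpc2 had levels of 5.78, 5.83, 6.01 and 4.72 in the WT soleus and 3.29, 3.85, 4.55 and 4.48 in the Ts1Cje soleus, a difference of -1.54 ± 0.31 that was not called (limma, adjusted p = 0.0837). For Myoz1 those reported are genes of fast fibre energy supply, Ampd1 at 0.10 and Pygm at 0.11. For Myoz3 they were Ppm1l at 0.13, and Me1 and Smco1 at 0.17 each.

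For the members higher in the soleus, the nearest genes were Bdh1 (0.30), Lgi1 (0.37) and Cnksr2 (0.37) for Myoz2, and Cenpp (0.21), Mavs (0.22) and Anxa4 (0.22) for Actn2. For Csrp3 the nearest gene, clone names aside, was another member, Ankrd2, at 0.40, followed by Ampd3 and Adprhl1 at 0.50 each. For Ankrd2 they were Ampd3 (0.30), Myom3 (0.34), an M-band protein, and Smtnl1 (0.35). Ankrd1 was nearest to Il15 at 0.46, Dennd2c at 0.48 and Rhbdl1 at 0.49, against 0.83 for its own variation. For Ldb3 the distance was 0.11 to each of Adipor1, Mapkap1 and Tom1l2, beside its own 0.28.

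Promoter sequences from RefSeq (build GRCm38.p6) covered 6 members, Actn2, Ankrd1, Ankrd2, Csrp3, Ldb3 and Myoz2, as the 250 bases before each annotated start. Actn3, Myoz1, Myoz3 and Tcap were not in that table. Both strands were searched for the E-box CANNTG, the MCAT element CATTCC, the TATA box TATAAA, the MEF2 site and the CArG box. Of 32851 windows of this length, 66.2%, 12.6%, 12.4%, 0.508% and 1.47% held them in that order. The windows of Myoz2 and Ankrd2 are shown because, among the members higher in the soleus, only theirs held a match other than an E-box, given in capitals. Those of Actn2 and Csrp3 held E-boxes alone.
Myoz2, chr3:123034988-123035237, minus strand: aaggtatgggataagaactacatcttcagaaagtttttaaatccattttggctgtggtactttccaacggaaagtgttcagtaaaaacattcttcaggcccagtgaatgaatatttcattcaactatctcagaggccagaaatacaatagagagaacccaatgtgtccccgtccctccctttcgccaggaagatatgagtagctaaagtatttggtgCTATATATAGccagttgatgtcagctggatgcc
Ankrd2, chr19:42035777-42036026, plus strand: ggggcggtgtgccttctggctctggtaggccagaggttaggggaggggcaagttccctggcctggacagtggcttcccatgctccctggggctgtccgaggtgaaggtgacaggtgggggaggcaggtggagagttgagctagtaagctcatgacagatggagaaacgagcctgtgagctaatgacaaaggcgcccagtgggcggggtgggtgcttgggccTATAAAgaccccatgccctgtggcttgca
The capitals mark a MEF2 site in Myoz2 and a TATA box in Ankrd2. Myoz2 also held 2 E-boxes and Ankrd2 3, none of which overlaps the marked match. Ankrd1 held 2 MCAT elements and 1 E-box, Actn2 3 E-boxes, each of 2 Csrp3 windows 4 E-boxes, and each of 2 overlapping Ldb3 windows the same CArG box. These are matches of letters in a window, and no binding was measured.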

How the data were processed

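Each array received Cy3 cRNA made from 25 ng of RNA, per the labels' protocols. The deposited scanner files hold gProcessedSignal, a background-corrected intensity, per the file headers made with Feature Extraction 11.5.1.1, while the submitters' processing notes name 9.1. The authors' deposited table holds log2 values, whose correlation per array with the values recomputed here, centred on each probe, rounded to 1.0 at its lowest.

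Spots of a probe were averaged, leaving out flagged outliers. Values were log2 gProcessedSignal minus the log2 75th percentile of the array. The 25190 probes well above background throughout 1 or more of the groups were kept, and the kept probe of highest mean stood for its gene (14170 genes). In R 4.3.3, limma 3.58.1 estimated the 4 group means from the 14 arrays (10 residual degrees of freedom), two-sided, with Benjamini-Hochberg adjustment over all genes; second probes were fitted over all kept probes. The code was tested on simulated data. Of 33822 probes with a symbol, RefSeq's table names 31926, counted after the symbols of 2138 probes were updated. The authors' table also holds 14 columns of flags, which were not used. The number of arrays limits the precision.

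Alternatives were normexp correction (median signal and background, offset 50), quantile normalization, the authors' table, other filters, the mean of a gene's probes, slide as a block or 1 slide alone, array weights, trended variance, only the compared groups, a replicate block and leaving out each array. The residual SD without 1 EDL array was added after the data were seen. The labels number the samples and the design text speaks of pairs. Same-numbered samples deviated together between EDL of WT and Ts1Cje (r = 0.401, 0.116 and 0.314) and between EDL and soleus of WT (0.512, 0.408 and 0.329). These numbers were taken as pairs, but only the replicate block used them, and the main fit was unpaired. The genes, lists and rules for named genes (all members, up to 4 called Z-disc genes per direction or the 2 of smallest p, Myh4 and Myh7, and the 3 nearest genes, of which 1 is not reported here) were chosen with earlier results of these data known. Pvalb was named after its values were seen. Marker lists of 12 cell types were used.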

Additional observations from a re-analysis of the deposited data

Results flagged for a closer look

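In each group of 4 soleus arrays, the highest and lowest value of every member was checked for distance from the rest with Dixon's criterion. Of 20 groups, 1 had such a value: Myoz3 in the Ts1Cje soleus of replicate 4 stood at 4.27, with the other arrays at 3.84, 3.88 and 3.90. Chance gives about 1 in 20.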

How the results depend on the processing

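Of the gene values under all alternatives, 1122 kept their sign and their side of the threshold, 26 lost a call, 4 gained one and 68 changed sign, none of these called either way. In the soleus genotype comparison the count of called members (1, Actn3) was 0 without a filter on dim probes (Actn3 -1.95, limma adjusted p = 0.0525), within slide 2 (-1.77, limma adjusted p = 0.155), with only the compared groups (-1.95, limma adjusted p = 0.0922) and with a replicate block (-1.95, limma adjusted p = 0.119). Same-numbered soleus samples of WT and Ts1Cje did not deviate together (r = -0.122, -0.294, 0.0105 and -0.135), nor did all those of EDL and soleus in Ts1Cje (r = -0.0885, -0.156 and 0.117). These numbers were therefore not taken as pairs. Deviations within groups of 3 or 4 arrays cannot show that samples were unpaired. The replicate block ended the call of Ldb3 between muscles in WT and no other call of a member where the numbers were taken as pairs. Leaving out 1 array gave counts of 0 to 1 in the soleus and 0 to 1 for the mean effect. Over all its alternatives the adjusted p of Actn3 in the soleus ran from 0.00126 to 0.155. Between muscles the count of 8 in WT was 5 with the slide as a block (Actn2 -1.49, limma adjusted p = 0.0492, with Actn3 and the 3 calsarcins), and that of 8 in Ts1Cje was 4 within slide 1 (Actn3 and the calsarcins). Ldb3 in WT also lost its call under normexp (0.34, limma adjusted p = 0.307), under quantile normalization (0.29, limma adjusted p = 0.256), without a filter on dim probes (0.49, limma adjusted p = 0.0853) and as the mean of its probes (0.39, limma adjusted p = 0.0626).

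The sign changes in the EDL were Actn2 at 0.00 in the authors' deposited table and 0.16 as the mean of its probes, Tcap at -0.01 under normexp and under array weights, and Ankrd2 at -0.21 under array weights. In the soleus they were Myoz3 at -0.11 as the mean of its probes, and Tcap at -0.04 both with the slide as a block and within slide 2. For the difference of the effects they were Actn2 at 0.15 and Myoz3 at 0.11 as means of probes, Tcap at 0.05 with the slide as a block, and Csrp3 at 0.00 under normexp and -0.38 under array weights. For the mean effect they were Myoz3 at -0.01 under quantile normalization and -0.06 as the mean of its probes, and Tcap at -0.01 with the slide as a block. With 1 array left out, the values in the EDL ran from -0.23 to 0.25 for Actn2, -0.56 to 0.49 for Ankrd2, -0.27 to 1.32 for Csrp3, -0.03 to 0.19 for Ldb3, -0.08 to 0.02 for Myoz1, -0.68 to 0.04 for Myoz2, -0.14 to 0.07 for Myoz3 and -0.07 to 0.07 for Tcap. In the soleus they ran from -0.12 to 0.40 for Ankrd1, -0.05 to 0.37 for Ankrd2, -0.01 to 0.21 for Myoz3 and -0.04 to 0.14 for Tcap. For the difference of the effects they ran from -0.44 to 0.04 for Actn2, -0.78 to 0.27 for Ankrd2, -0.95 to 0.64 for Csrp3 and -0.12 to 0.05 for Tcap. For the mean effect they ran from -0.01 to 0.23 for Actn2, -0.17 to 0.36 for Ankrd2, -0.30 to 0.06 for Myoz2, -0.03 to 0.09 for Myoz3 and -0.01 to 0.08 for Tcap. The cause of these changes was not tested, and the 3 or 4 arrays per group limit all values.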
